A study of Mus musculus with 2 samples.

Results

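Cldn16-positive thick ascending limb cells were examined in single-cell RNA profiles of injured mouse kidney. A retained cell was a barcode with at least 500 unique molecular identifiers (UMIs), at least 200 genes and at most 50% of UMIs from mitochondrial genes. Among these, a member had at least 5 UMIs of Slc12a1, more Slc12a1 than Slc12a3, at least 1 UMI of Cldn16 and none of the leukocyte gene Ptprc. The rule found 1173 members among 19478 retained cells, of which 495 came from the control library and 678 from the haplodeficient one. The members were thus selected on measured UMIs of Slc12a1, Slc12a3, Cldn16 and Ptprc, and these 4 genes are described without a test.

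The study compared endothelial PHD3 haplodeficient mice with mice lacking Cre, in 1 library per group. The haplodeficient library came from mice of the genotype Cdh5-CreERT2; Phd3f/+, which carry 1 floxed allele of Phd3 (Egln3) and a tamoxifen-inducible Cre. The Cre is driven by the Cdh5 (VE-cadherin) promoter, which is active in endothelium, so tubule cells are not its target. The control library was labelled Cre-, and the sources used here do not say whether its mice had a floxed Phd3 allele. They do not give the strain, the age or the number of animals in a library either. In both groups 1 kidney underwent ischaemia and reperfusion by clamping of the renal artery, 4 tamoxifen injections were given and the injured kidney was taken on day 14, in batch 1. With 1 library a group there was no test between groups, and each interval covers counting error only.

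The thick ascending limb takes up sodium, potassium and chloride through the cotransporter NKCC2, the product of Slc12a1, and secretes uromodulin (Umod). The lumen-positive voltage that this transport generates drives calcium and magnesium between the cells, through a pore that claudin-16 and claudin-19 form together in the tight junction. Claudin-10 forms a separate sodium pore in other junctions of the same segment, the calcium-sensing receptor (Casr) lowers divalent cation uptake, and parathyroid hormone acts there through Pth1r.

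Members carried markers of the thick ascending limb that the rule did not use. Umod was detected in 99.2% of control and 98.5% of haplodeficient members, Casr in 74.3% and 79.5%, and Cldn19 in 83.6% and 86.3%. Casr and Cldn19 did not pass a test against limb cells without a Cldn16 UMI, as given below, so they mark the segment. In leukocytes, which should lack these genes, the shares were 31.4% and 15.7% for Umod, 6.34% and 4.21% for Casr, and 4.26% and 3.91% for Cldn19, at a median of 6525.5 and 4816 UMIs against 16424 and 18330 in members. After thinning each cell to 2000 UMIs, which left out 4 members in each library, Cldn19 was seen in 29.9% and 32.6% of members and in 0.812% and 0.986% of leukocytes. Members were among the deeper cells, with a median of 4488 and 5119 genes. Mitochondrial genes gave a median of 10.3% of UMIs in control members and 4.39% in haplodeficient members. Free RNA, profiled in barcodes of at most 100 UMIs, was estimated at 14.3% of the control and 7.47% of the haplodeficient members' UMIs. The libraries held 134190236 and 114668145 UMIs, and of the barcodes they shared among retained cells, 28 in all, none was a member in both. Likely doublets by Scrublet score made up 11.5% and 9.29% of members, beside 7.56% and 8.02% of all retained cells.

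Members made up 5.24% of control cells (Clopper-Pearson 95% interval 4.80 to 5.71) and 6.76% of haplodeficient cells (6.28 to 7.27), while all thick ascending limb cells made up 9.43% and 9.44%. Of thick ascending limb cells, 55.6% (52.2 to 58.9, 495 of 891) had a Cldn16 UMI in the control library and 71.7% (68.7 to 74.5, 678 of 946) in the haplodeficient library. Thinned to 2000 UMIs, the shares were 15.1% (12.7 to 17.6) and 27.4% (24.5 to 30.4), so the haplodeficient share was the higher one at equal depth too. In leukocytes thinned alike, Cldn16 was seen in 0.305% and 0.796% of cells. Because this share follows how much Cldn16 a cell holds, it counts detection and not a fixed set of cells.

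The limits of the rule fell within a continuous range of counts. Control members held a median of 2 Cldn16 UMIs and at most 19, and haplodeficient members a median of 3 and at most 28. Just inside the limit, 198 control and 166 haplodeficient members had 1 Cldn16 UMI, at a median depth of 12969 and 8996 UMIs. Just outside it, 396 and 268 thick ascending limb cells had none, at 9917 and 6447 UMIs. The cells with 6 or more Cldn16 UMIs were the deepest, at 34717.5 and 42588 UMIs. At the limit on Slc12a1, 11 and 10 cells with 4 UMIs stayed outside and 3 and 10 members had 5. A Ptprc UMI kept out 62 and 112 cells that met the other conditions.

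The rule selects on Cldn16, so its level was also taken over all thick ascending limb cells, as a counts-per-million value (CPM) over all UMIs of the summed cells. Cldn16 went from the control to the haplodeficient library from 89.0 to 156 CPM, a ratio of 1.75 (1.64 to 1.87). Cldn10, the sodium-pore claudin, went from 637 to 1194 CPM, a ratio of 1.87 (1.83 to 1.92), and Cldn3, a sealing claudin, from 173 to 350.3 CPM, a ratio of 2.03 (1.94 to 2.12). Cldn19, the partner of claudin-16, went from 162 to 161 CPM, a ratio of 0.993 (0.942 to 1.05). The level of the partner was thus alike in the 2 libraries while those of Cldn16, Cldn10 and Cldn3 were higher in the haplodeficient one. Slc12a1, on which the segment was selected, went from 4544 to 4587 CPM, a ratio of 1.01 (0.999 to 1.02).

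Within members, Cldn16 (chr16:26463135-26482765, plus strand, GRCm38) stood at 131 CPM in the control and 179.7 CPM in the haplodeficient library. Cldn19 (chr4:119255414-119262438, plus strand) stood at 168 CPM in the control and 167 CPM in the haplodeficient library, with nearly the same level in both. Cldn10 (chr14:118787908-118875489, plus strand) was measured at 606 CPM in the control and 1188 CPM in the haplodeficient library, and 82.6% and 86.4% of members had a Cldn10 UMI. Most members therefore held UMIs of both claudin genes. After thinning to 2000 UMIs, 6.67% of control and 18.4% of haplodeficient thick ascending limb cells had UMIs of both Cldn16 and Cldn10. Casr (chr16:36493696-36562141, minus strand) was at 138 CPM in the control and 154 CPM in the haplodeficient library. Pth1r was at 241 CPM in the control and 313 CPM in the haplodeficient library. Umod (chr7:119462711-119479282, minus strand) was at 12375 CPM in the control and 8083 CPM in the haplodeficient library.

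**Figure D1:**
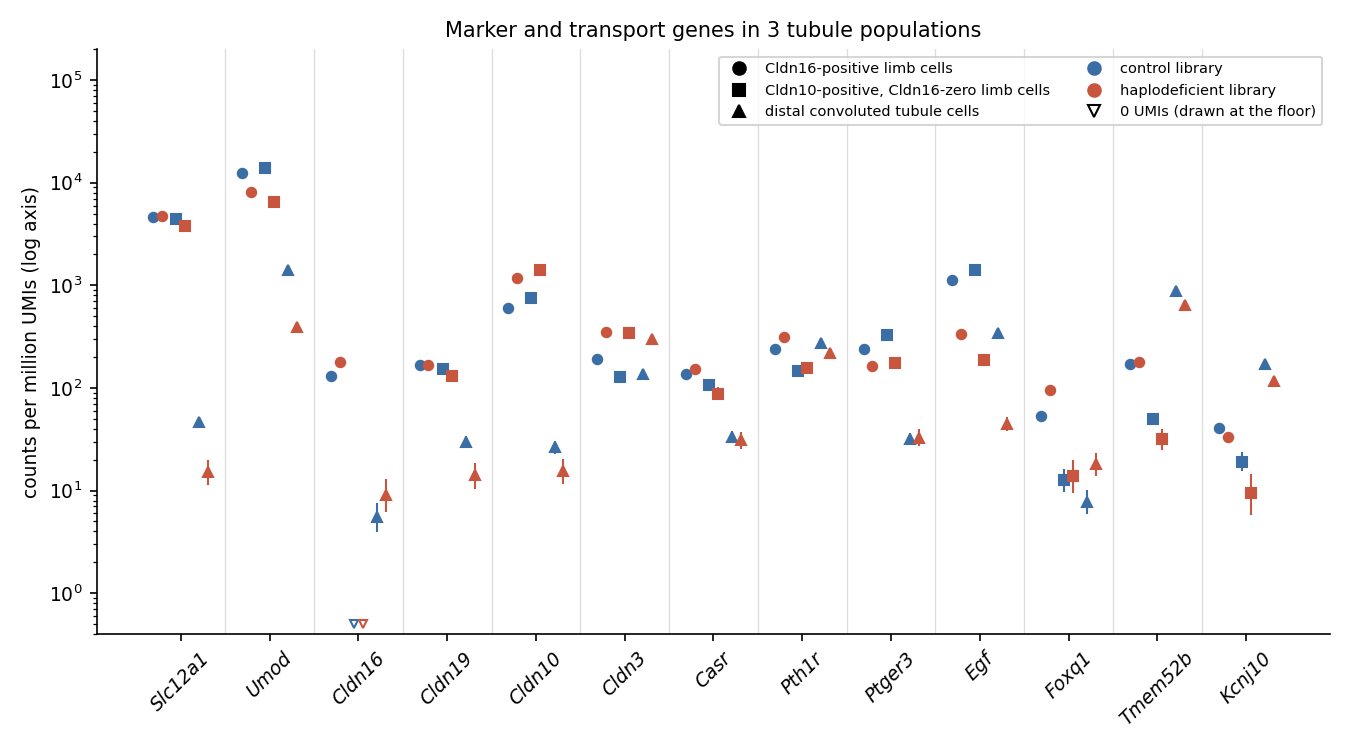
Level of 13 genes (CPM, log axis, exact Poisson 95% intervals as bars, open triangles for 0 UMIs) in summed cells of 3 populations in each library. Cldn16-positive cells and the Cldn16-zero limb cells share high Slc12a1, Umod and Cldn19, whereas Foxq1 and Tmem52b stand higher in the Cldn16-positive cells, at 53.7 and 95.5 CPM against 12.7 and 13.9 CPM for Foxq1.

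To find what else sets these cells apart, members were compared with their nearest neighbours, the thick ascending limb cells with a Cldn10 UMI and no Cldn16 UMI (344 control and 216 haplodeficient cells). The neighbours were shallower, at a median of 10707 and 7151 UMIs against 16424 and 18330 in members. Members held a median of only 2 and 3 Cldn16 UMIs, so some neighbours may hold Cldn16 that was not read. Sums per population and library entered edgeR's quasi-likelihood test with the library as a block and Benjamini-Hochberg adjustment. The fit held 6 sums, of 3 populations in 2 libraries, including the distal convoluted tubule cells described below. The block takes out the spread between libraries. A p-value therefore measures how far population differences vary between these 2 libraries, and not the spread between animals. Leaving out the genes of the gates, 11 of 13885 genes were higher in members (0.0792% of those tested) and 44 were lower (0.317%) at an adjusted p under 0.05. All 55 had the same direction in both libraries, which a call from this fit nearly requires, so it is no further support. With the library left out of the fit 0 genes passed, 322 having an unadjusted p under 0.05, and DESeq2 with the block called 30 higher and 106 lower.

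Foxq1, a forkhead transcription factor gene (chr13:31556134-31560976, plus strand), showed the largest difference among the named genes. It stood at 53.7 CPM in the control and 95.5 CPM in the haplodeficient library in members, against 12.7 and 13.9 CPM in the Cldn16-zero cells (log2 fold change 2.32 with SE 0.21, adjusted p = 0.020, edgeR). Tmem52b (chr6:129512555-129519227, plus strand), a transmembrane protein gene, stood at 172 and 177 CPM against 49.5 and 31.7 CPM (log2 fold change 2.03 with SE 0.18, adjusted p = 0.020, edgeR). Nrxn3, which encodes the adhesion protein neurexin-3 (chr12:88722876-90334935, plus strand), stood at 440.1 and 209 CPM against 128 and 62.1 CPM (log2 fold change 1.69 with SE 0.10, adjusted p = 0.004, edgeR). In each of these genes both libraries of members lay above both libraries of neighbours.

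Car15, a membrane-anchored carbonic anhydrase, was at 694 and 1791 CPM in members against 207 and 788 CPM (log2 fold change 1.39 with SE 0.20, adjusted p = 0.048, edgeR). Control members lay below haplodeficient neighbours in this gene, so its call rests on the contrast within each library. The other genes higher in members were Zfp503, a zinc finger protein (log2 1.24), Lrmda (1.06), the phospholipase-like Plcxd3 (1.03), the anion exchanger Slc4a9 (1.00), Cadps2, a factor of vesicle release (0.85), and Fam124a (0.72), with adjusted p between 0.021 and 0.048 by edgeR. The remaining gene, Greb1, was below the 20 CPM asked of a named gene and is named here after its values were seen (log2 2.06). When the UMIs expected from free RNA were subtracted, an alternative added after the data were seen, 3 genes remained called higher, Nrxn3 (adjusted p = 0.014), Tmem52b (0.026) and Greb1 (0.026).

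Calcium and magnesium genes gave no call against the neighbours. Of 22 mineral-handling genes tested, 0 were higher and 0 lower (edgeR, adjusted p under 0.05), where 0.0792% and 0.317% of all genes tested were. With so few calls over all genes, 0 calls among 22 do not set this list apart. Its median log2 fold change was 0.07 against 0.00 over all genes tested. Pth1r was at 241 and 313 CPM in members against 145 and 158 CPM (log2 fold change 0.81 with SE 0.16, adjusted p = 0.114). Casr was at 138 and 154 CPM against 106 and 88.1 CPM (log2 fold change 0.52 with SE 0.13, adjusted p = 0.198). Both receptors were read higher in members in each library without passing the test. Vdr, the vitamin D receptor, had a log2 fold change of 0.49 (adjusted p = 0.261). Cldn19 was at 168 and 167 CPM against 155 and 130.1 CPM (log2 fold change 0.19 with SE 0.18, adjusted p = 0.764). The partner claudin was thus abundant in limb cells where no Cldn16 UMI was found, which does not show that they lack Cldn16.

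The salt transport list, which also holds genes that are not transporters, was close to the neighbours too. Of 21 genes 1 was higher (Tmem52b, above) and 1 lower, with a median of 0.10. The lower one was Ckb, creatine kinase B, at 214 and 77.6 CPM against 376 and 155 CPM (log2 fold change -0.97 with SE 0.11, adjusted p = 0.025, edgeR). Kcnj10, a basolateral potassium channel, was at 41.0 and 33.5 CPM against 19.2 and 9.39 CPM and just missed the threshold (log2 fold change 1.27 with SE 0.19, adjusted p = 0.051). The apical potassium channel Kcnj1 had a log2 fold change of 0.03. Of 22 transcription factors 1 was higher (Foxq1) and 0 lower, with a median of 0.19, and of 14 hormone receptors 0 passed, with a median of 0.10. None of 7 macula densa genes passed either. Over all genes tested 0.0792% were called higher and 0.317% lower, so lists of this size without a call do not differ from other genes. Nos1, the macula densa nitric oxide synthase, was seen in 4.24% of control and 7.23% of haplodeficient members.

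The genes lower in members included markers of other kidney cells. The 10 lowest named genes were Fxyd4, a collecting duct regulator of the sodium pump (log2 -2.14), the water channel Aqp1 (-1.97), the trypsin inhibitor Spink1 (-1.69), the pericyte gene Rgs5 (-1.63), the potassium channel Kcnj15 (-1.53), the transcription factors Ebf1 (-1.50) and Meis2 (-1.48), the brush border protease Mep1a (-1.42), the scaffold protein Akap12 (-1.36) and the calmodulin-like Calml4 (-1.33). Their adjusted p lay between 0.020 and 0.049 by edgeR. Of 13 genes of the mitochondrial genome, 6 were lower. Free RNA was estimated at 22.4% and 21.3% of UMIs in the neighbours against 14.3% and 7.47% in members, and the neighbours were shallower, at a median of 10707 and 7151 UMIs. With expected free RNA subtracted, 1 gene remained called lower, the taurine transporter Slc6a6, which was named after its values were seen (log2 -1.50, adjusted p = 0.014).

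**Figure D2:**
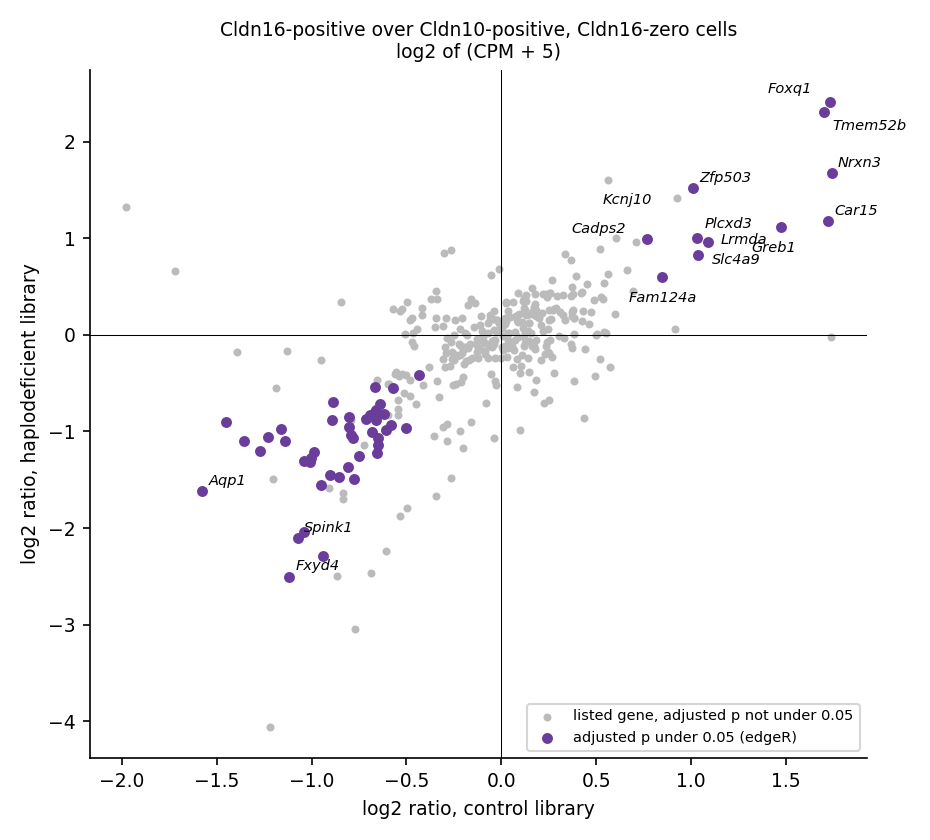
Log2 ratio of Cldn16-positive over Cldn16-zero, Cldn10-positive limb cells, on CPM plus 5, in the control (horizontal) and haplodeficient library (vertical). Each point is a gene of the lists or a called gene, the genes of the gates left out. The 55 purple points passed edgeR at an adjusted p under 0.05. They lie in the quadrants where both libraries have the same sign, which the call nearly requires.

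The next segment, the distal convoluted tubule, reabsorbs calcium and magnesium through the cells and not between them, and served as a second comparison (at least 5 Slc12a3 UMIs, more Slc12a3 than Slc12a1 and no Ptprc, 432 control and 172 haplodeficient cells). The same fit called 1071 genes higher in members (7.71%) and 1010 lower (7.27%), and 230 and 194 with the library left out. Both comparisons use the same members, so their calls are not independent. The split of calcium and magnesium genes between the segments was wide. Of 22 mineral-handling genes, 4 were higher in members and 12 lower, with a median of -1.02 against 0.01 over all genes.

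Calb1, the calcium-buffering calbindin, was at 2.81 and 3.00 CPM against 1066 and 643 CPM (log2 fold change -8.14 with SE 0.28, adjusted p = 1.6e-05, edgeR). Members held almost none of it. Slc8a1, the sodium-calcium exchanger, was at 40.9 and 50.8 CPM against 2436 and 1280.0 CPM (log2 fold change -5.40 with SE 0.46, adjusted p = 4.0e-04, edgeR). Trpv5, the apical calcium channel, had a log2 fold change of -3.83, and Trpm6 and Trpm7, magnesium channels, of -2.34 and -1.98 (adjusted p at most 9.2e-05). In the opposite direction, Casr was at 138 and 154 CPM against 33.3 and 30.8 CPM (log2 fold change 2.14 with SE 0.14, adjusted p = 1.4e-04, edgeR) and Cldn19 at 168 and 167 CPM against 30.1 and 14.1 CPM (log2 fold change 2.84 with SE 0.21, adjusted p = 2.2e-04, edgeR). Egf, the precursor of a growth factor that promotes magnesium uptake, was at 1138 and 337 CPM against 340.4 and 44.5 CPM (log2 fold change 2.27 with SE 0.30, adjusted p = 0.0024, edgeR). Pth1r did not pass, at 241 and 313 CPM against 273 and 219 CPM (adjusted p = 0.690).

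Apart from the mineral genes, members stood above distal convoluted tubule cells in Irx1 (log2 5.92) and Irx2 (5.43), Iroquois homeobox factors, and in Sim2 (5.11), a helix-loop-helix factor. Irx1 was at 107 and 156 CPM against 2.41 and 1.17 CPM. Also among the 10 highest were Eprn (6.66), Sgcz, a sarcoglycan (5.42), the proton-gated channel Asic2 (5.35), the phospholipase Pla1a (4.82), the sodium-proton exchanger Slc9a3 (4.78) and the sulfotransferase Chst9 (4.54). Pappa2, a protease of IGF-binding proteins, was at 23.7 and 56.8 CPM against 0.00 and 0.293 CPM. Beside Calb1 and Slc8a1, the 10 lowest were Pvalb, a calcium-binding protein (-7.37), the mutase Pgam2 (-6.29), the homeobox genes Emx1 (-5.94) and Lhx1 (-5.34), Egfem1 (-5.76), the prostaglandin receptor Ptgfr (-5.02), leukotriene synthase Ltc4s (-4.81) and neuroligin Nlgn1 (-4.62). All 20 had an adjusted p of at most 0.0024 by edgeR. Of 22 transcription factors 12 were higher and 4 lower, and of 11 tight junction genes tested outside the gates 1 was higher and 4 lower, among them Cldn8 (-1.27), a claudin of the distal nephron.

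Members were not uniform. Among the 469 control and 632 haplodeficient members of at least 5000 UMIs, 71 and 70 had no Cldn10 UMI, although a cell of their median depth (10977 and 8937 UMIs) would hold 7.34 and 11.2 Cldn10 UMIs at the level of the other members. These Cldn10-zero members are described without a test, since they were set apart by a measured gene. Some of the genes called against the neighbours were higher in them. Tmem52b was at 712 against 115 CPM in the control and 463 against 160.2 CPM in the haplodeficient library for members without against those with Cldn10. Nrxn3 was at 1587 against 319 CPM in the control and 663 against 186 CPM in the haplodeficient library, and Foxq1 at 158 against 42.3 CPM in the control and 229 against 88.8 CPM in the haplodeficient library. Kcnj10, which had missed the threshold against the neighbours, was at 156 against 28.7 CPM in the control and 87.3 against 30.6 CPM in the haplodeficient library. Each of these was higher without Cldn10 in both libraries. Pth1r showed the same order, at 565 against 206 and 577 against 299 CPM, and Casr a smaller difference, at 234 against 128 and 191 against 151 CPM. The Cldn10-zero members were shallower, against 18294 and 22441.5 UMIs in the others.

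Other genes were lower in the members without Cldn10. Ptger3, a prostaglandin E receptor, was at 61.5 against 259 CPM in the control and 29.5 against 170.5 CPM in the haplodeficient library, again without against with Cldn10. Irx1 was at 17.4 against 117 and 22.1 against 163 CPM and Irx2 at 17.4 against 123 and 24.6 against 158 CPM. Eprn was at 16.4 against 264 and 3.69 against 341 CPM, and Cacnb2, a calcium channel subunit, at 31.8 against 127 and 20.9 against 115 CPM. Over 6949 genes of at least 20 CPM, 16 were at least 2-fold higher and 31 at least 2-fold lower without Cldn10 in both libraries. Cldn19 had nearly equal levels on either side, at 183 against 166 and 173 against 167 CPM, and Slc12a1 was at 4186 against 4645 and 3844 against 4756 CPM. Across members, the correlation of Cldn10 with Ptger3 was 0.50 in control and 0.49 in haplodeficient members, on log10 CPM plus 50 over cells that share a library and differ in depth. The contrast with the neighbours was repeated with only the members with a Cldn10 UMI, in an alternative added after the data were seen. The log2 fold change was 1.36 for Nrxn3 (adjusted p = 0.014), 2.09 for Foxq1 (0.028) and 1.67 for Tmem52b (0.078), the last no longer past the threshold.

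A wide spread from cell to cell was seen in Egf (chr3:129677565-129755316, minus strand). In the control library 29.6% of members of at least 5000 UMIs had no Egf UMI and 18.8% (88 of 469) stood above 3200 CPM. In the haplodeficient library 38.6% had none and 0.633% (4 of 632) stood above 3200 CPM. The median was 122 CPM in the control and 60.7 CPM in the haplodeficient library, and the 95th percentile 8766 and 1758 CPM. The lower sum in the haplodeficient library went with fewer cells in the highest class. Lcn2, which encodes the injury protein lipocalin-2, had the opposite shape. Its median was 557 CPM in control and 1365 CPM in haplodeficient members, and 14.7% against 1.11% had no Lcn2 UMI.

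**Figure D3:**
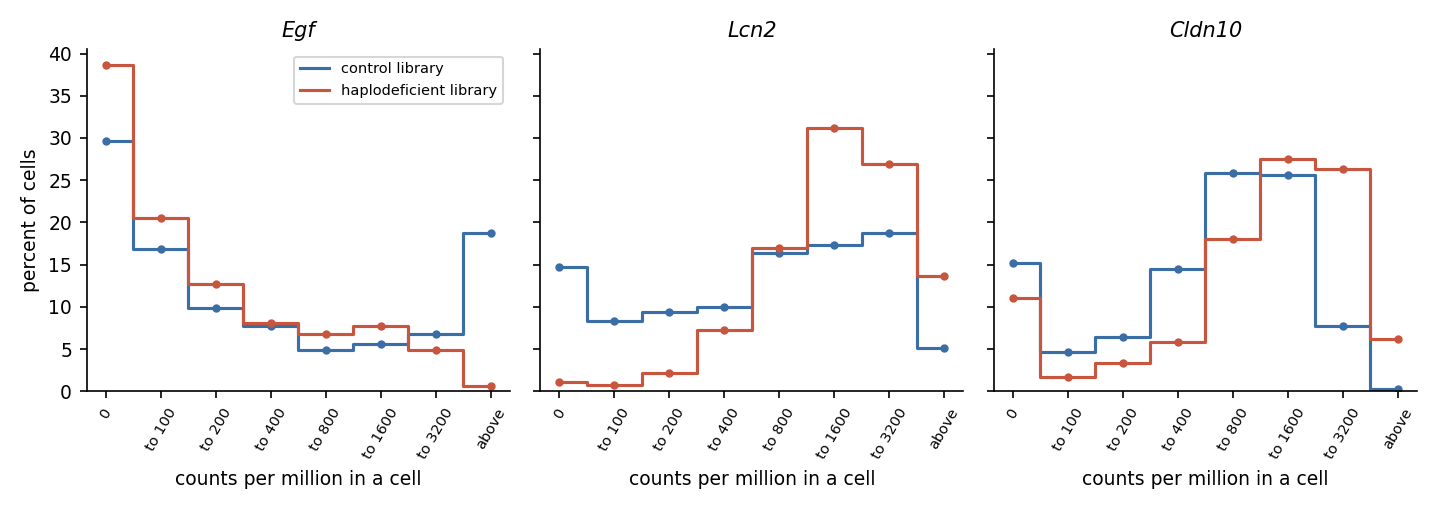
Share of Cldn16-positive cells of at least 5000 UMIs (vertical, percent of 469 control and 632 haplodeficient cells) by their level of Egf, Lcn2 and Cldn10 (horizontal, classes of CPM in a cell, upper bounds doubling from class to class). Among control cells 29.6% have no Egf and 18.8% stand above 3200 CPM, the others lying between, and few haplodeficient cells are in the upper class (0.633%).

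The members with no Egf UMI (139 control and 244 haplodeficient cells) differed from the others in several injury and transport genes, again given as a description. Psca, a membrane-anchored antigen of epithelia, was at 551 against 125 CPM in the control and 598 against 99.7 CPM in the haplodeficient library without against with Egf. Krt19, a keratin, was at 275 against 96.3 CPM in the control and 293 against 106 CPM in the haplodeficient library. S100a6 was at 1803 against 709.5 and 2577 against 819.9 CPM, the chaperone Cryab at 379 against 158 and 605 against 223 CPM, Cldn4 at 162 against 64.7 and 128 against 63.8 CPM and the cell cycle inhibitor Cdkn1a at 166 against 89.0 and 264 against 141 CPM. These were higher without Egf in both libraries. Transport genes had the opposite order. Slc12a1 was at 2277 against 5435 CPM in the control and 2699.9 against 5374 CPM in the haplodeficient library and Umod at 6034 against 14652 and 4414 against 9319.8 CPM. Slc9a3 was at 46.6 against 238 and 9.04 against 74.9 CPM and Casr at 77.3 against 159.9 and 96.5 against 172 CPM. Cldn19 was at 176 against 165 and 180.0 against 163 CPM and Cldn16 at 124 against 131 and 149.7 against 186 CPM, both closer between the 2 sets of cells. Over 7009 genes, 17 were at least 2-fold higher and 18 at least 2-fold lower without Egf in both libraries. Egf correlated with Umod at 0.61 in control and 0.54 in haplodeficient members, and with Lcn2 at -0.72 and -0.30, on the same scale as above. The cells without Egf were shallower, at a median of 15005 and 11932.5 UMIs against 17485 and 26838.5. In the control library they also held more Kap, an abundant proximal tubule gene, at 1695 against 519 CPM. The part of either in these differences was not tested.

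**Figure D4:**
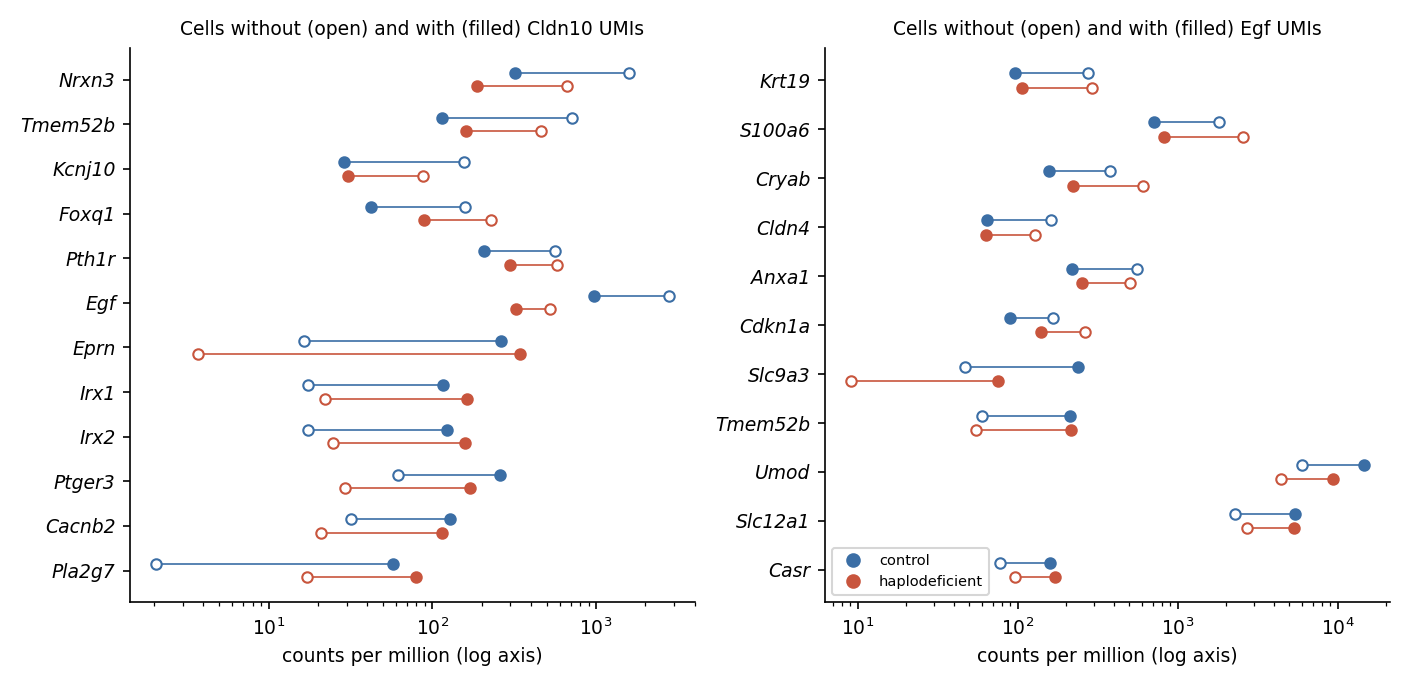
Levels (CPM, log axis) in Cldn16-positive cells of at least 5000 UMIs without (open) and with (filled) UMIs of Cldn10 (left) or Egf (right), in the control (blue) and haplodeficient library (red). The genes on the upper rows are higher in the cells without the gene and those on the lower rows higher in the cells with it, in both libraries.

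Between the libraries, a gene of the members was eligible when its mean level reached 50 CPM and its UMIs reached 30, and a difference met the size rule with a log2 ratio of haplodeficient over control of at least 1 in size, on CPM plus 5, and Poisson 95% intervals that did not overlap. Of 3629 eligible genes 52 met it (1.43%), 16 of them higher (0.441%) and 36 lower (0.992%) in the haplodeficient library. The median log2 ratio was 0.07 and 57.8% of genes were above 0. No p-value can be given for 1 library against 1. Under other scalings the split shifted to 7 higher and 52 lower (CPM over nuclear UMIs) or 9 and 45 (median of ratios), and without likely doublets it was 8 and 29. The same rule gave 62 higher (1.8%) and 62 lower (1.8%) of 3453 genes in the Cldn16-zero neighbours, and 39 (1.12%) and 43 (1.24%) of 3481 in distal convoluted tubule cells. Of the 36 lower genes, 11 were genes of the mitochondrial genome, 11 others had at least 50% of their control UMIs expected from free RNA, and 14 were neither.

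Egf and genes of transport, metabolism and adhesion were among those 14. Egf was at 1138 CPM in control and 337 CPM in haplodeficient members, 0.296-fold (95% interval 0.286 to 0.305). Its log2 ratio was -1.74 and had a range of -2.33 to -1.13 over the 13 alternatives. Slc9a3, the sodium-proton exchanger, was at 187 and 58.3 CPM (log2 ratio -1.60). Ckb was at 214 and 77.6 CPM (log2 ratio -1.40), and Slc5a3, the myo-inositol transporter, at 383 and 178 CPM (log2 ratio -1.09). Lpl, lipoprotein lipase, was at 125 and 27.0 CPM (log2 ratio -2.02), and Abca13, a lipid transporter, at 143 and 35.6 CPM (log2 ratio -1.86). Lpl and Abca13 reached the mean of 50 CPM only through the control library. Nrxn3, called higher in members than in the neighbours, was at 440.1 and 209 CPM (log2 ratio -1.06). All of these were lower in the haplodeficient library with under 10% of control UMIs expected from free RNA. Ckb no longer met the size rule among members with at least 2 Cldn16 UMIs (-0.85), nor did Slc5a3 there (-0.94) or at a mitochondrial limit of 25% (-0.95). Lower levels were also read in the other populations. In the neighbours, from the same libraries, Egf was at 1406 and 186 CPM (log2 ratio -2.89), and the log2 ratio of Slc9a3 was -2.74. In distal convoluted tubule cells Egf was at 340.4 and 44.5 CPM (log2 ratio -2.80), and the log2 ratio of Abca13 was -2.25. Nrxn3 stood higher there than in members of each library, at 854 and 479 CPM, so it did not mark members against that segment.

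Of 12 eligible mineral-handling genes 0 were higher and 1, Egf, was lower, with a median log2 ratio of -0.17. Casr was at 138 and 154 CPM, 1.12-fold (95% interval 1.05 to 1.19), and Pth1r at 241 and 313 CPM, 1.30-fold (95% interval 1.24 to 1.36). Kl, which encodes klotho, was at 68.9 and 40.5 CPM (log2 ratio -0.70), and S100g, calbindin-D9k, at 299.8 and 537 CPM (log2 ratio 0.83). Of 11 tight junction genes 0 met the size rule, with a median of 0.12. Cldn10 came close, at a log2 ratio of 0.97, and Cldn3 had a log2 ratio of 0.86 and Cldn7 one of 0.62, while Cldn19 had one of -0.01 and Cldn4 one of -0.18. Within members Cldn16 is fixed in part by the rule, at 1.37-fold (95% interval 1.28 to 1.46). Of 16 genes of the salt transport list 0 were higher and 2 lower, the exchanger Slc9a3 and the kinase Ckb, with a median of -0.21. Umod was at 12375 and 8083 CPM, 0.653-fold (95% interval 0.648 to 0.658), and Slc12a1 at 4615 and 4722 CPM, 1.02-fold (95% interval 1.01 to 1.03). Of 17 transcription factors 0 met the rule. Among those, the metabolic regulators Esrrg (log2 ratio -0.97) and Ppargc1a (log2 ratio -0.81) were lower, and Foxq1 (log2 ratio 0.78) higher.

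Interferon-responsive genes were among the higher genes, and the list was eligible only in small part. Of 32 listed genes 6 were eligible, and 5 of the 6 met the size rule in the higher direction, where 0.441% of all eligible genes did. Isg15 reached the mean of 50 CPM only through its level in the haplodeficient library. At a minimum mean of 10 CPM 11 of 24 listed genes were higher by the rule, beside 47 of 9180 genes. With no filter on low counts 11 of 32 were, beside 61 of 21892. Ifitm3, a membrane protein that blocks virus entry, was at 57.2 and 189 CPM (log2 ratio 1.64). Isg15, a ubiquitin-like modifier, was at 31.4 and 78.3 CPM (log2 ratio 1.19). Ifi27 was at 171 and 367 CPM (log2 ratio 1.08), Bst2, a tether of virus particles, at 57.8 and 122 CPM (log2 ratio 1.02), and Psmb8, an immunoproteasome subunit, at 55.8 and 122 CPM (log2 ratio 1.07). The sixth, Irf1, an interferon-regulatory factor, was lower, at 121 and 89.7 CPM (log2 ratio -0.42). Free RNA was expected to give 34.1% of the control UMIs of Ifitm3 and 14.0% of those of Isg15. A log2 ratio of at least 1 was kept by Ifitm3 under all 13 alternatives, by Ifi27 under 12, by Isg15 under 11, and by Bst2 and Psmb8 under 7 each. These counts include the alternatives that change only the filter on low counts, which cannot alter a ratio. Without likely doublets 2 of 5 eligible genes met the size rule, and with expected free RNA subtracted 3 of 6.

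Macrophage and leukocyte RNA differed between the libraries too. In members the summed level of 7 macrophage markers was 52.7 CPM in the control and 89.0 CPM in the haplodeficient library, with 0 of 7 at 0, and in free RNA 1162 and 5901 CPM. Their part in the interferon genes was not tested. In the neighbours, which share these libraries, Isg15 was at 32.1 and 114 CPM. By the rule 5 of 6 eligible interferon genes were higher there, and 5 of 6 in distal convoluted tubule cells, beside 1.8% and 1.12% of all.

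The promoters of the eligible interferon genes were searched for the core of the interferon-stimulated response element. It was written as TTTC, any 2 bases and TTTC again (or GAAA, any 2 bases and GAAA, its other strand). Of 32851 promoters (250 bases before to 50 after a start, RefSeq, GRCm38.p6) 1131 held it (3.44%), and 3 of the 5 eligible interferon genes found there did, Isg15 with 3 matches and Bst2 and Ifitm3 with 2 each. Matches may overlap. Irf1, which was not called and has 2 promoters, and Psmb8 had none, and Ifi27 was not matched. The 3 of 5 counts genes, while the 3.44% counts promoters. The matches of Ifitm3 are not printed. The windows printed here run 5′ to 3′ on the minus strand, in the direction of each gene, with a match in capitals and a distance of its end to the start of 68 bases for Isg15 (chr4:156200862-156200921) and 120 for Bst2 (chr8:71537568-71537627).
Isg15: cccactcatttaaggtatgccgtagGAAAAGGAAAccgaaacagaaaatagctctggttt
Bst2: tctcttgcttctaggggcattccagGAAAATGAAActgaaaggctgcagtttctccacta
A match describes the letters and shows no binding.

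Of 6 eligible antigen presentation genes 2 met the size rule in the higher direction (H2-D1 and Psmb8, the latter also counted above), beside 0.441% of all eligible genes, and the median log2 ratio was 0.80. None of the 6 met it at a mitochondrial limit of 25%, without likely doublets, over nuclear UMIs or under median-of-ratios scaling. H2-D1 kept a log2 ratio of at least 1 under 6 of 13 alternatives, including the low-count filters, which cannot alter it. H2-D1, a class I heavy chain, was at 264 and 534 CPM (log2 ratio 1.00) and H2-K1 at 327 and 611 CPM (log2 ratio 0.89). The class I partner B2m was at 135 and 224 CPM, with 51.2% and 27.0% expected from free RNA. H2-D1 and H2-K1 belong to a family of near-identical genes, so the split of reads between them is uncertain. The list was not particular to members. By the rule 3 of 6 eligible genes were higher in the neighbours and 4 of 7 in distal convoluted tubule cells, beside 1.8% and 1.12% of all. Of 29 eligible injury genes 0 met the rule. Of these, 26 were above 0, beside 57.8% of all eligible genes, with a median of 0.34 against 0.07. Over nuclear UMIs 21 were above 0, beside 44.5% of all eligible genes, with a median of 0.23 against -0.04. Gdf15, a stress cytokine, was at 109 and 219.9 CPM (log2 ratio 0.98) and Tnfrsf12a, a receptor of injured epithelium, at 58.1 and 118 CPM (log2 ratio 0.97). Lcn2 was at 1149 and 1865 CPM (log2 ratio 0.70), and Spp1, osteopontin, at 14608 and 18569 CPM (log2 ratio 0.35). Sox9, a factor of repairing epithelium, went the other way, at 88.4 and 61.4 CPM (log2 ratio -0.49). Among the neighbours 6 of 29 eligible injury genes were higher by the rule (median 0.72 against 0.14), beside 1.8% of all. In distal convoluted tubule cells 3 of 28 were (median 0.59 against 0.11), beside 1.12%. Of 20 genes known to respond to tissue dissociation 0 met the rule. Of these 20 genes 17 were above 0, beside 57.8% of all eligible genes, and 13 over nuclear UMIs, beside 44.5%. These 20 genes had a median of 0.25. Their part in the injury genes was not tested.

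The other named genes of high ratio were Rpl29, a ribosomal protein gene with processed copies that make its counts uncertain (log2 ratio 1.83), the filament gene Vim (log2 ratio 1.67), Car15 at 694 and 1791 CPM (log2 ratio 1.36), Eva1b (log2 ratio 1.31), the matrix protein gene Sparc (log2 ratio 1.16) and Frmpd4 (log2 ratio 1.09). Vim, at 27.0 and 97.2 CPM, and Sparc, at 33.1 and 80.3 CPM, reached the mean of 50 CPM only through the haplodeficient library. Vim had 69.0% of its control UMIs expected from free RNA and Sparc 33.4%. Without likely doublets the log2 ratio was 0.51 for Vim and 0.67 for Sparc, so neither met the size rule. The lowest ratios belonged to genes of the proximal tubule. Kap was at 830.2 and 3.24 CPM (log2 ratio -6.66), and Acsm2 (-3.58), the phosphate transporter Slc34a1 (-3.51), Gpx3 (-3.22), the sulfate transporter Slc13a1 (-2.86) and Cltrn (-2.35) followed. Between 56.3% and 100% of their control UMIs were expected from free RNA. The 10 proximal tubule markers summed to 1454 CPM in control and 66.8 CPM in haplodeficient members, with 0 of 10 at 0, and to 15933 and 1238 CPM in free RNA. Of 13 genes of the mitochondrial genome 11 were lower and 0 higher, with a median of -1.34, led by mt-Nd3 at 4145 and 871 CPM (log2 ratio -2.24). The 22 nuclear genes of oxidative phosphorylation had a median of -0.17, and none met the rule.

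**Figure D5:**
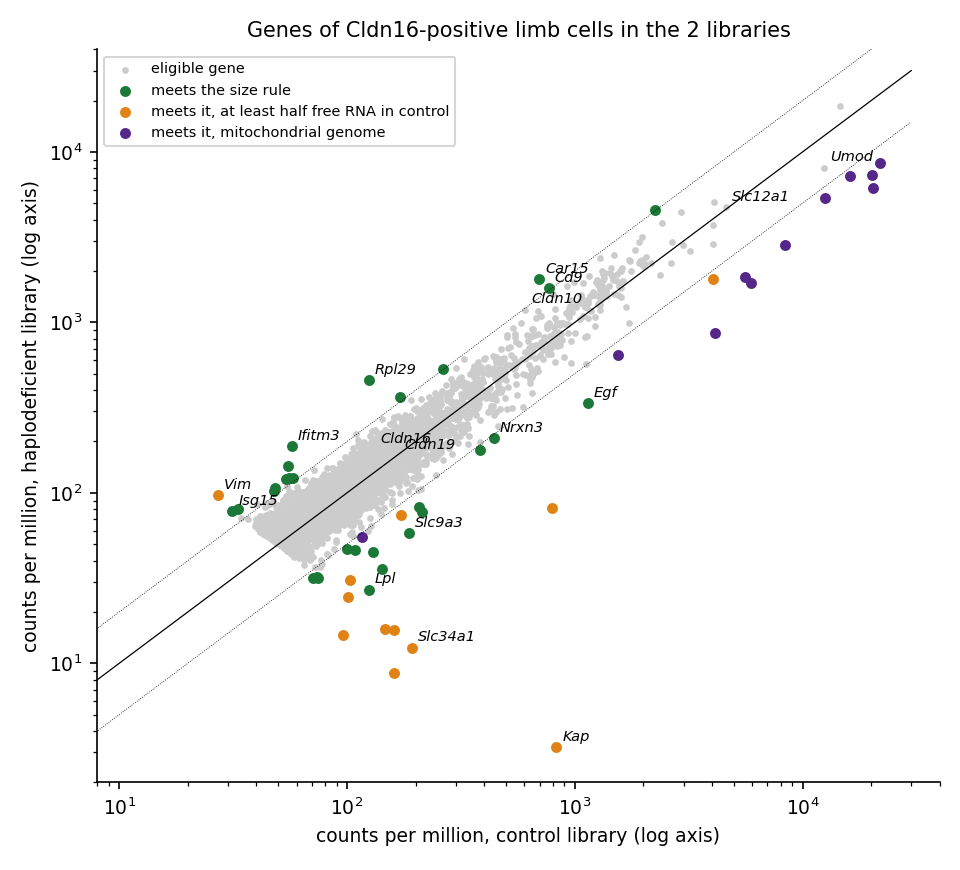
Level of each of 3629 eligible genes in Cldn16-positive cells (CPM, log axes) in the control (horizontal) and haplodeficient library (vertical), with equality as a solid and 2-fold differences as dotted lines. The 52 genes past the size rule are coloured: mitochondrial genes and genes mostly expected from free RNA fill much of the lower side, and Egf, at 1138 and 337 CPM, lies among the other lower genes.

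The gene floxed in the haplodeficient mice was hardly read in these cells. Egln3 (chr12:54178981-54203860, minus strand), which encodes PHD3, had 13 UMIs in control and 26 in haplodeficient members, in 2.22% and 3.39% of cells, below the 4.45% and 4.34% of leukocytes. Of 10 eligible target genes of hypoxia-inducible factors 0 met the size rule, 5 were above 0 and the median was -0.07. Ndrg1 was at 505 and 310.4 CPM (log2 ratio -0.69), with 24.0% and 6.54% expected from free RNA, and the glucose transporter Slc2a1 at 71.3 and 52.3 CPM (log2 ratio -0.41). Lactate dehydrogenase Ldha was at 222 and 281 CPM (log2 ratio 0.33). The list had no common direction in members. Endothelial markers summed to 56.9 and 101 CPM over 6 genes with 0 of 6 at 0, and 12.1% and 14.0% of members had a UMI of Cdh5 or Pecam1. A UMI of Mki67 or Top2a, genes of dividing cells, was found in 4.44% and 4.42% of members.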

How the data were processed

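The authors deposited raw UMI counts per gene and barcode, in unfiltered matrices written by Cell Ranger, whose file headers give version 4, with reads placed on mm10 (per the submitters' processing notes). The members and gene lists were chosen with earlier results of these data known. Sums over cells were tested with edgeR 4.0.16 (quasi-likelihood, TMM, library as block, 6 sums, residual df 2; DESeq2 1.42.0 as an alternative) in R 4.3.3, on 13889 genes that passed filterByExpr. Populations of a library come from the same preparation, which is the pairing. Cells were thinned, and free RNA estimated, in Python 3.11.15. Named genes were those of the lists that a result turns on, the 10 highest and 10 lowest between libraries, and against each population the 10 highest and 10 lowest with an adjusted p under 0.05, the same direction in both libraries and a mean of at least 20 CPM. Scrublet (scanpy 1.11.5) scored doublets, which were kept. Scripts were tested on simulated data. Gene positions are GENCODE's on GRCm38, with 99.8% of identifiers matched. A few named genes are not reported here.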

Additional observations from a re-analysis of the deposited data

How the results depend on the processing

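Among values of listed and named genes and list medians, 2545 were unchanged under the alternatives, 432 moved, 314 no longer passed and 5 reversed. Unchanged meant within counting error for a ratio between libraries and within 0.1 for a list median. Against a population it meant still passing in the same direction, or within the SE where a library was left out. Between libraries, the alternatives that change only the filter on low counts cannot alter the ratio of a gene. The reversed values were Cltrn between libraries with expected free RNA subtracted (log2 1.23), Rgs5 against the neighbours without likely doublets (0.28), and after thinning to 2000 UMIs Vcam1 against the neighbours (0.47) and Pou3f3 (-0.10) and Rtp4 (0.18) against distal convoluted tubule cells. Among the other genes past the size rule between libraries, Ass1 (-1.60 to 2.44) and Spink1 (-1.85 to 0.82) also changed sign with expected free RNA subtracted. All control UMIs of Cltrn, Ass1 and Spink1 were expected from free RNA, so the subtraction left none. In the haplodeficient library the expected part was 57.7%, 33.1% and 85.5%. The cause of the other reversals was not tested. Both differences in cell shares, 1.53 and 16.1 percentage points, kept their direction under every alternative run.

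Between libraries, the 16 higher genes became 9 at a mitochondrial limit of 25%, 8 without likely doublets, 34 after thinning, 47 at a minimum of 10 CPM, 61 with no filter, 7 over nuclear UMIs and 9 under median-of-ratios scaling, and the 36 lower genes became 114 at 10 CPM and 187 with no filter. Against the neighbours, without the replicate block (the library not in the fit) the 11 higher and 44 lower genes became 0 and 0. They became 33 and 167 with at least 2 Cldn16 UMIs, 30 and 106 in DESeq2, 263 and 395 with no filter, 56 and 126 with only the 2 populations in the fit, and 3 and 1 with expected free RNA subtracted. The higher genes became 24 after thinning and 5 with only members that had a Cldn10 UMI. The lower genes became 23 at a mitochondrial limit of 25%, 23 without likely doublets and 73 against all Cldn16-zero limb cells. Against distal convoluted tubule cells, the 1071 higher and 1010 lower genes became 664 and 658 in DESeq2, 556 and 519 after thinning and 230 and 194 without the replicate block. Subtracting free RNA, adding all Cldn16-zero cells, keeping only members with Cldn10 and, between libraries, keeping only cells of at least 5000 UMIs were chosen after seeing the data. Leaving out a library leaves no residual degrees of freedom, so it gives a value with no test.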
